A study of Mus musculus with 17 samples.

Results

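The 32 genes described here are induced when proteins misfold in the endoplasmic reticulum or when amino acids run short. They were listed by name and known function, at a time when earlier results of these data were known. All 32 were found among the 48397 genes counted in 12 bulk RNA libraries and among the 28208 genes common to 5 single-cell matrices, all from mouse. The bulk libraries were labelled as wild-type splenic T cells stimulated with anti-CD3 and anti-CD28 antibodies, with activation read at 72 h. They formed 4 groups of 3: Control, given the antibodies only; Ctrl_Fc, with a control IgG Fc protein; PD1_Fc, with the PD-1 receptor's outer part fused to Fc; and PDL1_Fc, named for the ligand PD-L1. The protocol gives 2.5 ug/ml for PD-1 Fc and control Fc and names no PD-L1 Fc. The labels did not agree among themselves: the treatment entry gave PD1_Fc replicate 3 as PDL1 Fc and all 3 PDL1_Fc libraries as PD1 Fc, so titles were used. The single-cell libraries came from CD45+ cells sorted from untreated mouse pancreatic tumours 3 weeks after orthotopic implantation and were labelled tumour-infiltrating T cells, with 1 library for each of 5 genotypes. By the genotype entry these were WT, flfl (PDL1 floxed/floxed without Cre), CD4Cre, flWT_CD4Cre (PDL1 floxed/WT-CD4Cre) and flfl_CD4Cre (PDL1 floxed/floxed-CD4Cre), where Cre under the Cd4 promoter deletes a floxed gene in T cells. The deposited file of the library labelled flWT_CD4Cre is named for WT, and that of the library labelled WT is named for WT and PDL1 together, against the labels. The labels were used, and whether these libraries were exchanged was not tested; comparisons between cell classes do not depend on it. Nothing in the labels says that the 3 libraries of a bulk group came from separate animals, so their p-values measure the spread between these libraries only.

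In the unfolded protein response, sensors in the endoplasmic reticulum membrane answer unfolded protein. The sensor IRE1 splices the mRNA of the transcription factor XBP1, ATF6 is cut to release a transcription factor, and PERK phosphorylates eIF2alpha, which slows translation while favouring that of ATF4. Lack of amino acids reaches ATF4 through another eIF2alpha kinase, GCN2. ATF6 and XBP1 raise chaperones and degradation factors of the endoplasmic reticulum, whereas ATF4 raises amino acid transporters, enzymes of asparagine, serine and glycine synthesis, and tRNA synthetases. Antibody-secreting plasma cells are the classical immune cells that depend on XBP1, and activated T cells are known to raise amino acid uptake and serine and folate metabolism.

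These DNA elements are shown because the list joins the targets of 2 programmes. RefSeq promoter windows (GRCm38.p6, 250 bases before to 50 after a start) were found for 29 of the 32 genes, with no entry for Slc7a5, Cars and Manf. Only the 250 bases before the start were searched, on both strands, and capitals mark the fixed letters of each match. The endoplasmic reticulum stress element, searched as CCAAT, then 9 bases of any kind, then CCACG, was in the windows of 6 of the 29, against 0.13% of 27025 genes in the table. The capitals below show its CCAAT and CCACG parts, or their complement when the match lay on the other strand.
Hspa5, chr2:34772019-34772048, plus strand: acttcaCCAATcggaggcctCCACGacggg
Hsp90b1, chr10:86705528-86705557, minus strand: agagtgCGTGGtgaggcacgATTGGtgagt
Calr, chr8:84847045-84847124, minus strand: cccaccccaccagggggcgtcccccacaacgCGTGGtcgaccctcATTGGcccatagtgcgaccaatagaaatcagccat
Pdia6, chr12:17266460-17266539, plus strand: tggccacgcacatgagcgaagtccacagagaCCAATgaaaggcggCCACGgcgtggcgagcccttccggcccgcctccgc
Creld2, chr15:88819489-88819568, plus strand: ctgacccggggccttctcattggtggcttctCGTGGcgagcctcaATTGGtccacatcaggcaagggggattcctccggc
Syvn1, chr19:6046496-6046575, plus strand: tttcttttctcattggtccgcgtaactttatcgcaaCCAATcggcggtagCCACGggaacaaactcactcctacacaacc

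Of these 6, 5 encode chaperones or foldases and Syvn1 encodes the ubiquitin ligase of the degradation pathway. The window of Hsp90b1 held a further match on its other strand. The related element, searched as ATTGG, then 1 base of any kind, then CCACG, was in the window of Herpud1, a scaffold of the degradation complex, and in 0.037% of genes in the table.
Herpud1, chr8:94386342-94386421, plus strand: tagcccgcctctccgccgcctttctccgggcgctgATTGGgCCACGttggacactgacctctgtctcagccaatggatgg

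The C/EBP-ATF response element, searched as TGATGNAA, was in 7 of the 29 windows (Atf3, Chac1, Vldlr, Asns, Slc7a11, Gars and Herpud1), against 3.91% of genes. The stretch of Slc7a11, the cystine transporter, holds 2 matches, and Herpud1 is the member with both kinds of element. The XBP1 element TGACGTGG was in none of the 29 windows, in the part before the start that was searched, and in 0.603% of genes. All stretches shown lie upstream of the RefSeq start, and those of Hspa5 and Asns lie in bases that the GENCODE annotation also gives as exon. A match is a description of these letters, not of binding.
Asns, chr6:7693214-7693243, minus strand: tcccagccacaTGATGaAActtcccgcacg
Slc7a11, chr3:50443627-50443706, minus strand: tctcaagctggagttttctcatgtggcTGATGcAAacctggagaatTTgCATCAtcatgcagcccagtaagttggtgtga
Atf3, chr1:191183400-191183479, minus strand: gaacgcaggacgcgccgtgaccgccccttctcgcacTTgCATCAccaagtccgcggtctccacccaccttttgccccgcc

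The bulk libraries fell into 2 sets that stood apart. Control and PDL1_Fc held 14880455 to 18557390 reads counted in genes, with 8.95% to 11.2% of reads not aligned. Ctrl_Fc and PD1_Fc held 3473884 to 5006301 such reads, with 79.9% to 80.4% not aligned. In Control and PDL1_Fc the 7 macrophage markers, among them C1qa and Adgre1, summed to 738 to 838 CPM (the per-million share of all gene counts), and the 6 T cell markers to 0.162 to 0.624 CPM. Cd3g and Trbc2 were at 0 in all 6 of those libraries, and Trac also in Control, so the labelled cell type was not met there. In Ctrl_Fc and PD1_Fc the T cell markers summed to 711 to 853 CPM, with Cd3d at 0, and the macrophage markers to 4.35 to 8.63 CPM. Set, cell makeup, depth and the share of reads not aligned cannot be told apart, and Fc proteins are therefore compared within a set first. In bulk RNA, fewer cells of a type and less RNA per cell also cannot be told apart.

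Within the T-cell-marker set, no listed gene passed the test between PD1_Fc and Ctrl_Fc. Most listed genes lay slightly above their Ctrl_Fc level in PD1_Fc, led by Psat1, Gars, Asns and Vldlr. With edgeR's quasi-likelihood test and Benjamini-Hochberg adjustment, 0 of 32 passed an adjusted p of 0.05, against 0.0478% of 14653 genes tested. DESeq2's Wald test called 1 of the 26 it could test, Gars (adjusted p = 0.0319). At an unadjusted p under 0.05 there were 4 of 32, against 5.26% of all genes. With the TMM scaling (trimmed mean of M-values) used for all log2 changes, the change was above 0 for 29 of 32, with a median of 0.18, where 59.1% of all genes were above 0 with a median of 0.05. Scaled by total counts alone it was above 0 for 23 of 32, with a median of 0.11, against 47.1% of all genes with a median of 0. The members that turned were Mthfd2, Hspa5, Calr, Pdia6, Manf and Syvn1. This direction was already known when the genes were listed, so the counts are a description. B cell markers also differed between these groups, with 6 markers summing to 29.6 to 30.1 CPM in Ctrl_Fc and to 19.9 to 26.1 CPM in PD1_Fc, without overlap. Pax5 had 8.75 to 10.1 CPM against 4.39 to 5.04 CPM, and their part in the members' changes was not tested.

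Psat1, the phosphoserine aminotransferase of serine synthesis, stood at 21.9, 28.1 and 27.7 CPM in Ctrl_Fc and at 35.1, 36.2 and 35.4 CPM in PD1_Fc. Its libraries did not overlap, and the lowest was Ctrl_Fc replicate 1. The log2 change was 0.51 (SE 0.15, n = 3 and 3; adjusted p = 0.444, edgeR's quasi-likelihood test), and it was 0.39 without that library.

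Gars, the glycyl-tRNA synthetase, had 479.9, 462 and 500.0 CPM in Ctrl_Fc and 556, 587 and 562 CPM in PD1_Fc. All 3 PD1_Fc libraries were above all 3 Ctrl_Fc libraries. The log2 change was 0.30 (SE 0.09; adjusted p = 0.564, edgeR's quasi-likelihood test). Fitted on the 6 libraries of the set alone, the adjusted p of Gars was 0.0216, with a log2 change of 0.24.

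Asns, asparagine synthetase, had 108, 111 and 133 CPM in Ctrl_Fc and 146, 129.7 and 139.6 CPM in PD1_Fc. The groups overlapped at 1 library each. Its log2 change was 0.30 (SE 0.11; adjusted p = 0.919, edgeR's quasi-likelihood test). Vldlr, a lipoprotein receptor that ATF4 raises, was low, with 10.1, 9.01 and 9.65 CPM in Ctrl_Fc and 13.8, 12.6 and 14.8 CPM in PD1_Fc. Those groups did not overlap, and the log2 change was 0.58 (SE 0.22; adjusted p = 0.919, edgeR's quasi-likelihood test). Herpud1 had 179, 177 and 179 CPM in Ctrl_Fc and 198, 203 and 186 CPM in PD1_Fc, a log2 change of 0.20 (SE 0.10; adjusted p = 0.931, edgeR's quasi-likelihood test).

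By role, the 5 stress-induced regulators had a median log2 change of 0.49, of which Trib3 (1.73, 1.29 and 1.93 CPM against 2.67, 2.52 and 1.6 CPM) and Chac1 were carried by few reads. Trib3 is a pseudokinase that ATF4 raises, and Chac1 degrades glutathione. The 5 enzymes had a median of 0.30, whereas the 9 chaperones and foldases had a median of 0.06. Hspa5, the main chaperone BiP, had a log2 change of 0.01 (SE 0.10), with 1714, 1637 and 1767 CPM in Ctrl_Fc against 1639.8, 1650.0 and 1655 CPM in PD1_Fc. Atf4 itself had 704, 779 and 679 CPM against 768, 759.9 and 749 CPM, a log2 change of 0.15 (SE 0.09). Ddit3, which encodes the pro-apoptotic factor CHOP, had 9.21, 9.78 and 13.7 CPM against 16.6, 12.6 and 10.6 CPM, and these overlapped. Groups that did not overlap were found for 5 members above (Psat1, Gars, Vldlr, Herpud1 and Edem1), against 5.54% of all genes, and for 1 below (Calr), against 5.83%. Overlap is read on CPM, which the TMM factors do not correct; in the fit, which uses those factors, the log2 change of Calr was 0.01 (SE 0.10). Among 9 related gene lists that share no member with these 32, no gene passed either.

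**Figure D1:**
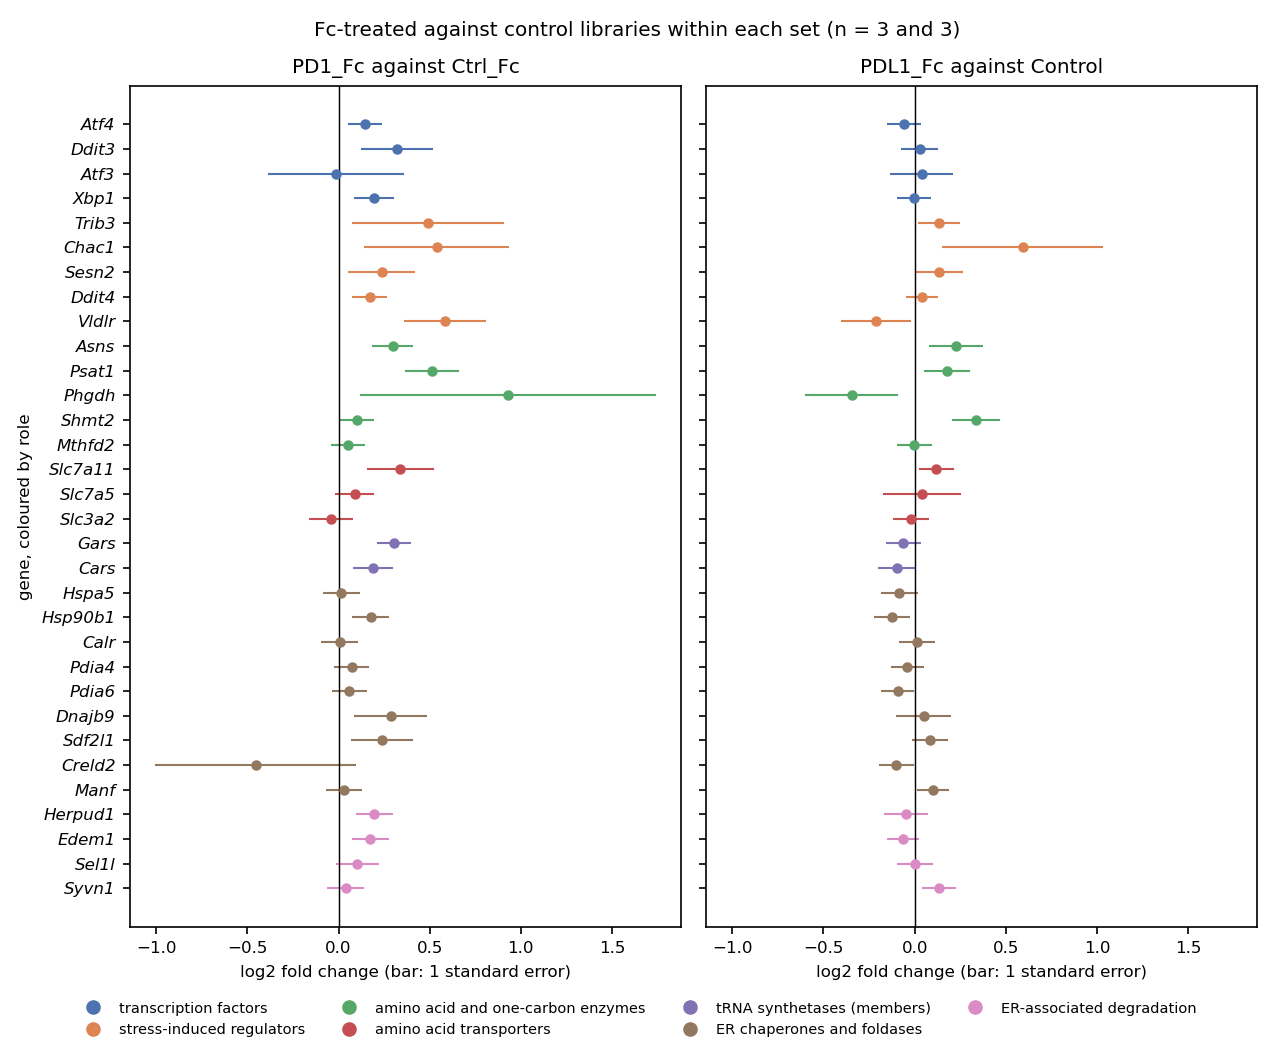
Log2 fold change of each of the 32 genes (points) with 1 standard error (bars) in PD1_Fc against Ctrl_Fc (left) and PDL1_Fc against Control (right), 3 libraries a group, coloured by role. With TMM scaling 29 of the 32 points lie above 0 on the left (23 with total counts) and 17 on the right (19 with total counts), and none passed an adjusted p of 0.05; the widest bar, of Phgdh on the left, belongs to a gene with at most 1.07 CPM in those libraries.

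In the macrophage-marker set the listed genes were close to even between PDL1_Fc and Control. None of 32 passed edgeR's quasi-likelihood test, against 0% of all 14653 genes, and DESeq2's Wald test called 0 too. At an unadjusted p under 0.05 there was 1 member, Shmt2, against 3.6% of all genes. The log2 change was above 0 for 17 of 32, against 46.9% of all genes, with a median of 0.01 (19 of 32 with total counts). Shmt2, the mitochondrial serine hydroxymethyltransferase, had 8.2, 9.05 and 7.29 CPM in Control and 11.5, 8.6 and 11 CPM in PDL1_Fc. The groups overlapped, and the log2 change was 0.34 (SE 0.13; adjusted p = 1, edgeR's quasi-likelihood test). Asns (0.23, SE 0.15) and Psat1 (0.18, SE 0.13) had small positive changes, with 15.4, 17.8 and 17.2 CPM of Psat1 in Control and 18.4, 19.3 and 19.6 CPM in PDL1_Fc. Syvn1 (0.14, SE 0.09) was also above in every PDL1_Fc library, and Phgdh (-0.34, SE 0.26), the first enzyme of serine synthesis, was below. In all, 6 members did not overlap and were higher (Asns, Syvn1, Psat1, Chac1, Sesn2 and Ddit4; 4.18% of all genes) and 2 were lower (Phgdh and Pdia6; 3.62%).

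The difference between those effects was tested directly. No member passed edgeR's quasi-likelihood test, against 0.00682% of all genes, and DESeq2's Wald test called 0 of the 18 it could test. At an unadjusted p under 0.05 there were 3 members, against 5.47% of all genes. These were Gars, whose change in PD1_Fc exceeded that in PDL1_Fc by 0.37 (SE 0.13), Vldlr, by 0.80 (SE 0.29), and Hsp90b1, by 0.30 (SE 0.14); the adjusted p of the first 2 was 0.818 and that of Hsp90b1 0.908 in edgeR's quasi-likelihood test. Cars (0.29, SE 0.15) and Edem1 (0.24, SE 0.13) came next and missed that limit. The change in PD1_Fc was the higher one for 24 of 32, against 57.9% of all genes, with a median difference of 0.14 (22 of 32 with total counts, against 48.6% of all genes). The effect on the list was thus not shown to differ between the sets.

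Between the sets, nearly every listed gene differed, as nearly every gene did. Ctrl_Fc against Control gave 8 members higher and 19 lower, where 91.8% of all genes passed edgeR's quasi-likelihood test (44.4% higher and 47.4% lower). PD1_Fc against PDL1_Fc gave 10 higher and 18 lower, against 91.8% of all genes (45% higher and 46.8% lower). The amino acid branch was split. Asns, Shmt2, Mthfd2, both tRNA synthetases and Slc7a5 were higher in the T-cell-marker set, whereas Atf3, Ddit3, Trib3, Slc7a11 and most chaperones were higher in the macrophage-marker set. Read totals and the normalization factors (0.769 to 0.795 in Control and PDL1_Fc, 1.18 to 1.36 in Ctrl_Fc and PD1_Fc) differed between the sets, and CPM values are not corrected by those factors while the log2 changes are. Scaling by total counts alone moved the median change of all genes from -0.13 to 0.61 and split the members 15 higher and 14 lower. In Ctrl_Fc against Control it also turned the direction of Atf4, Ddit4, Vldlr, Psat1, Hspa5 and Hsp90b1. The 4 plasma cell markers summed to 379 to 415 CPM in the macrophage-marker set and to 0.864 to 4.50 CPM in the T-cell-marker set, but Sdc1 made up nearly all of the first sum (379, 394 and 415 CPM in Control). Jchain (0.162, 0.269 and 0 CPM in Control; 0.576, 1.03 and 0.429 CPM in Ctrl_Fc) and Mzb1 (0.108, 0 and 0 CPM; 0.288, 0.772 and 0.429 CPM) were near 0 in both sets.

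Slc7a5, the light chain of the transporter for leucine and other large neutral amino acids, had 2.7, 1.62 and 3.29 CPM in Control and 2.74, 2.96 and 2.12 CPM in PDL1_Fc. It had 177, 202 and 159 CPM in Ctrl_Fc and 170.3, 178 and 195 CPM in PD1_Fc. Control ranged from 1.62 to 3.29 CPM between its libraries, but the sets lay far apart. The log2 difference of Slc7a5 was 5.39 (SE 0.15) for Ctrl_Fc against Control (adjusted p = 1.79e-43, edgeR's quasi-likelihood test). Slc3a2, its heavy chain, which also pairs with Slc7a11, ran the opposite way. It stood at 942, 1022 and 1166 CPM in Control and at 67.9, 76.5 and 69.9 CPM in Ctrl_Fc, a log2 difference of -4.62 (SE 0.12).

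Shmt2 was at 8.2, 9.05 and 7.29 CPM in Control and at 429, 456 and 393 CPM in Ctrl_Fc, a log2 difference of 4.95 (SE 0.12). Mthfd2, the mitochondrial folate enzyme downstream of it, moved less, from 58.5, 66 and 62.5 CPM to 296, 270.0 and 295 CPM (1.46, SE 0.10). Asns was at 7.18, 7.06 and 6.57 CPM in Control and at 108, 111 and 133 CPM in Ctrl_Fc (3.34, SE 0.13). The enzymes did not all follow: Psat1 differed by -0.11 (SE 0.14; adjusted p = 0.444, edgeR's quasi-likelihood test), with the sign turned under total-count scaling. Phgdh had 4.91, 4.1 and 3.88 CPM in Control but 0, 0 and 1.07 CPM in Ctrl_Fc, too few reads for a fold to be given.

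Gars differed by 2.62 (SE 0.10) and Herpud1 by 2.92 (SE 0.11), the latter from 13.4, 12.8 and 16 CPM in Control to 179, 177 and 179 CPM in Ctrl_Fc. Of the 4 degradation factors only Herpud1 was higher with TMM scaling, whereas with total counts Syvn1 was higher too (0.77, adjusted p = 3.81e-11, edgeR's quasi-likelihood test; 0.03 with TMM). Chac1 was higher as well (1.75, SE 0.45), from 0.27, 0.701 and 0.657 CPM to 3.17, 4.12 and 2.14 CPM.

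Of the members lower in Ctrl_Fc than in Control, Creld2 led. This secreted chaperone cofactor of the endoplasmic reticulum stood at 227, 202 and 217 CPM in Control and at 1.15, 0.772 and 2.14 CPM in Ctrl_Fc (-7.98, SE 0.19). Its fold rests on 4, 3 and 10 reads in Ctrl_Fc, too few for an SE this small, so its size is uncertain. Atf3, a repressor of the ATF family that many stresses raise, stood at 1138, 1317 and 1410.2 CPM in Control and at 5.47, 6.69 and 16.5 CPM in Ctrl_Fc (-7.74, SE 0.27). Per kilobase of exon, Atf3 was the highest member in Control, at 598 ± 64.2 RPKM (SD, n = 3), above Calr at 512 ± 38.8 RPKM. The 2 overlapped between libraries, and Slc3a2 came next, at 296 ± 32.2 RPKM. In Ctrl_Fc the highest was Hspa5, at 403 ± 15.5 RPKM, followed by Atf4 at 305 ± 22.1 RPKM and Calr at 289.9 ± 1.68 RPKM, of which the last 2 overlapped. Sec61b, of the translocation and export list, had 95.9, 77.8 and 77 CPM in Control and 0.288, 0.257 and 0.429 CPM in Ctrl_Fc. Of 16 genes tested in that list 5 were higher and 10 lower. Phgdh, near 0 in Ctrl_Fc, had 57.5 to 158 CPM in the T-like cells of the tumour libraries below. Creld2 had a median over libraries of 33.2 CPM in those T-like cells and of 37.1 CPM in macrophage-like cells. The medians of Slc3a2 were 147 and 205 CPM. Atf3 (8.94 and 157 CPM) and Slc7a11 (7.66 and 70.5 CPM) differed more between those classes. The wide gap of Creld2 between the bulk sets was thus not seen between those classes. Whether reads of single genes were missing from Ctrl_Fc and PD1_Fc was not tested, so levels near 0 there are given only as measured.

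Trib3 fell from 37.4, 35.5 and 39 CPM to 1.73, 1.29 and 1.93 CPM (-5.22, SE 0.22), the latter on 6, 5 and 9 reads. Slc7a11 stood at 250.1, 243 and 194 CPM in Control against 10.9, 13.6 and 14.4 CPM in Ctrl_Fc (-4.87, SE 0.14). Ddit3 stood at 99.7, 93.7 and 104 CPM against 9.21, 9.78 and 13.7 CPM (-3.90, SE 0.15). These 3 share ATF4 as a known regulator with Asns and Chac1, which were higher in Ctrl_Fc. Chac1 rested on 5, 13 and 11 reads in Control and on 11, 16 and 10 in Ctrl_Fc. The part of ATF4 in these differences was not tested, and the sets also differ in cell makeup and in reads not aligned. Of the 9 chaperones and foldases 8 were lower, although total-count scaling turned Hspa5 (-0.26, SE 0.10) and Hsp90b1 (-0.52, SE 0.10). Sdf2l1 (-3.40, SE 0.13) and the disulfide isomerase Pdia6 (-2.27, SE 0.10) were lower under both scalings, and Pdia4 (0.10, SE 0.09) did not pass with TMM. With total counts Pdia4 was higher (0.85, adjusted p = 1.31e-13), and Dnajb9 lost its call (-0.83 with TMM, -0.09 with total counts; adjusted p = 0.645, edgeR's quasi-likelihood test). Xbp1 was lower too (-1.62, SE 0.10), with 139.8, 153 and 173 CPM against 76.6, 91.6 and 86 CPM.

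PD1_Fc against PDL1_Fc gave differences of like size, such as 5.44 (SE 0.15) for Slc7a5, 4.71 (SE 0.12) for Shmt2, -8.33 (SE 0.20) for Creld2 and -7.80 (SE 0.26) for Atf3. Creld2 rested on 9, 3 and 2 reads in PD1_Fc, so its size is again uncertain. Here total-count scaling split the members 16 higher and 14 lower and turned Ddit4, Hspa5, Hsp90b1, Dnajb9 and Syvn1. The related lists followed the same division in Ctrl_Fc against Control. Of 17 tRNA synthetases 14 were higher and 2 lower, and of 10 further amino acid transporters 7 were higher and 3 lower. Of 16 further genes of the ATF4 programme 15 were lower and none higher, and of 14 further degradation genes 3 were higher and 10 lower. Of 14 genes that tissue dissociation and heat raise, 2 were higher and 9 lower; their part in the results was not tested.

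**Figure D2:**
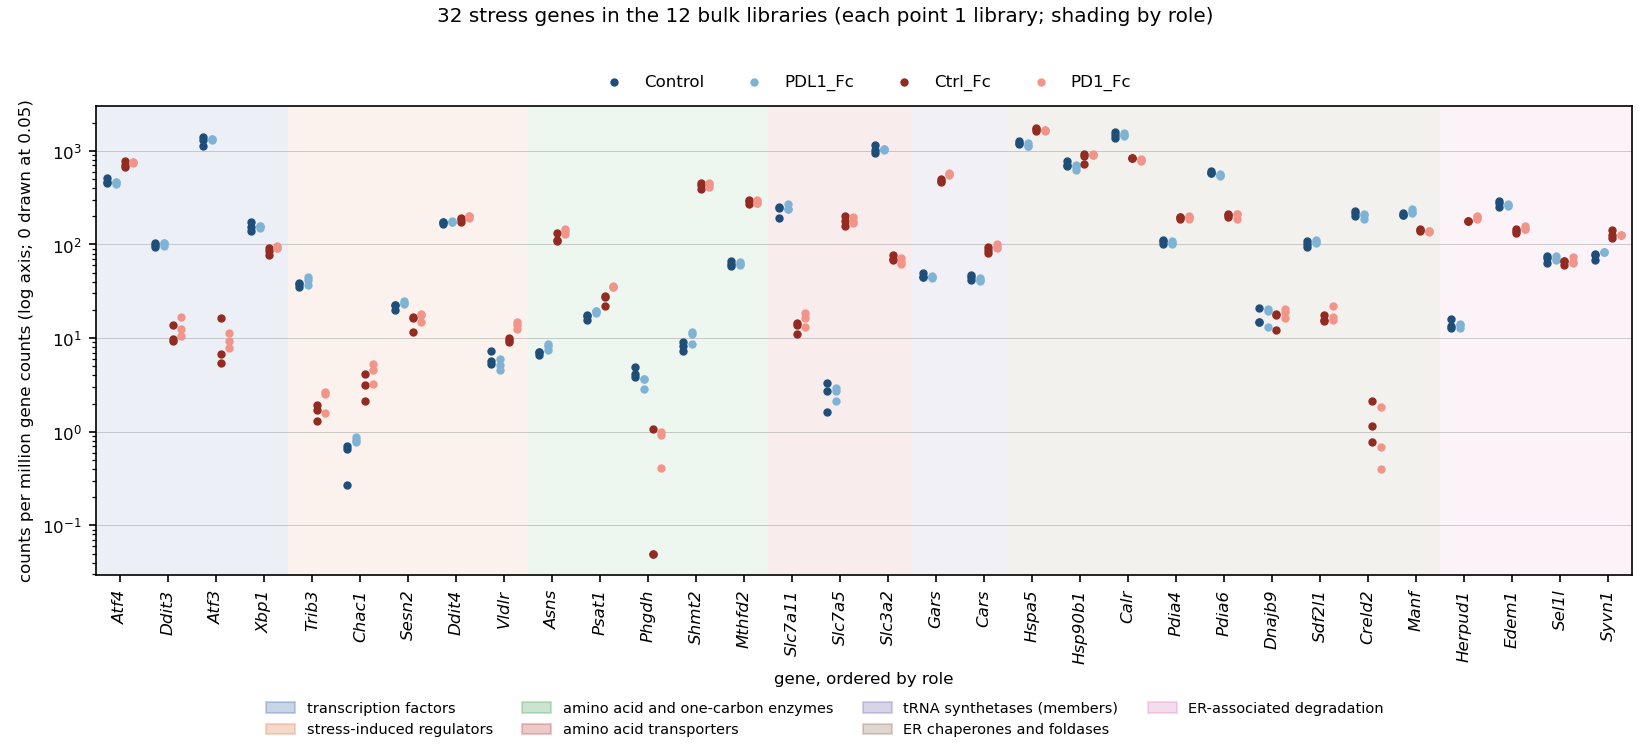
Level of the 32 genes in each of the 12 bulk libraries (points; CPM on a log axis, with 0 drawn at 0.05), ordered and shaded by role, blue for Control and PDL1_Fc and red for Ctrl_Fc and PD1_Fc. Points of 1 set lie close together for nearly all genes, while Atf3, Creld2, Slc7a5 and Shmt2 lie apart between the sets.

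The tumour libraries allowed the same genes to be read by cell type. After removing cells with fewer than 200 genes or over 10% mitochondrial UMIs (unique molecular identifiers), 2849 to 4406 cells a library were kept, and 67.8% to 83.9% of them fell into 1 of 14 classes by marker genes, none of which is a listed gene. Although the libraries were labelled as T cells, the largest class was macrophage-like in 4 of them (741 to 1289 cells) and B-like in CD4Cre (2285 of 4406), with 60 to 508 T-like cells a library. Epithelial-like cells were found despite the CD45 sort (36 to 600 a library). The kept cell with the fewest UMIs had 4455 in flfl and 5007 in WT, but 501 in CD4Cre and flWT_CD4Cre and 503 in flfl_CD4Cre. Cells of low depth were thus absent from flfl and WT. In all, 2184 barcodes occurred in more than 1 library, mainly among CD4Cre, flWT_CD4Cre and flfl_CD4Cre, and each was kept only where it had at least 10 times the UMIs of its next library. Classes were compared on UMIs summed per library and class, with the library as a block. Levels are given as CPM of all UMIs of the class in a library, for the libraries in the order CD4Cre, flWT_CD4Cre, flfl_CD4Cre, flfl and WT.

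**Figure D3:**
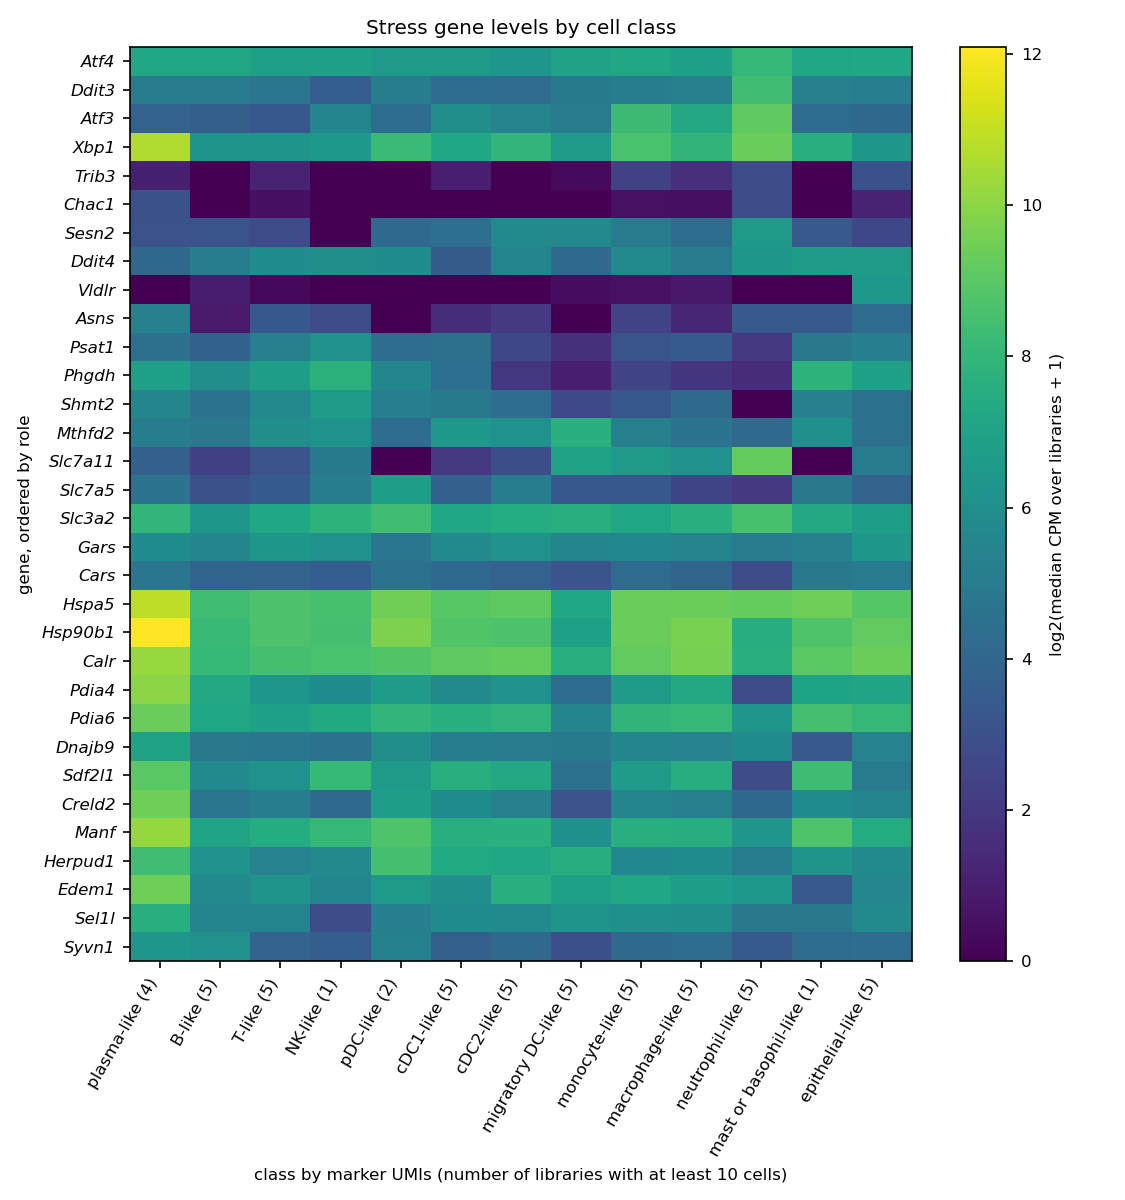
Level of the 32 genes (rows, ordered by role) in each cell class (columns, with the number of libraries of at least 10 cells), as log2 of the median CPM over libraries plus 1. The plasma-like column is brightest for Xbp1 and the chaperones, the neutrophil-like column for Ddit3, Atf3 and Slc7a11, and Vldlr stands out in the epithelial-like column alone.

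Plasma-like cells held the strongest expression of the folding branch. Against B-like cells 24 of 31 tested members were higher and 0 lower, where 10.6% of 10646 genes were higher and 27.3% passed in either direction (edgeR's quasi-likelihood test). All 9 chaperones and foldases and all 4 degradation factors were higher. The comparison rests on 10 to 28 plasma-like cells in each of 4 libraries, since flWT_CD4Cre had none. Many lay near the class limit, with only 2 markers or a marker share under 2 times the next class. These were 16 of 28 in CD4Cre, 11 of 23 in flfl_CD4Cre, 6 of 10 in flfl and 12 of 14 in WT. With a share of 2 times the next class too few were left to compare. Plasma-like cells also held a median of 2 to 3 of the 6 B cell markers and 1 to 3 of the 7 macrophage markers, and the part of these in the result was not tested.

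Xbp1 stood at 1492, 2087, 1363 and 1775 CPM in plasma-like cells of CD4Cre, flfl_CD4Cre, flfl and WT. In B-like cells it stood at 72.8, 171, 77.4, 76.9 and 65.5 CPM over the 5 libraries. The lowest plasma-like value was far above the highest B-like value, and the log2 difference was 4.91 (SE 0.30; adjusted p = 2.49e-17, edgeR's quasi-likelihood test).

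Hsp90b1, the chaperone GRP94 that folds immune receptors, had 5074, 8022, 3683 and 1496 CPM in plasma-like cells and 294, 687, 294, 241 and 237 CPM in B-like cells. The WT library was lowest in the first group, yet the groups did not overlap (4.35, SE 0.24). Creld2 had 396, 933, 1068 and 430.2 CPM against 17.3, 49.9, 13.3, 25.6 and 33.8 CPM (5.36, SE 0.34). Edem1, which hands misfolded glycoproteins to degradation, had 689.7, 1111, 695 and 600.4 CPM against 42.2 to 58.6 CPM (4.52, SE 0.23). Sdf2l1 (4.10, SE 0.25) and Manf (3.78, SE 0.23), both stress-induced residents of the endoplasmic reticulum, were higher in all 4 libraries.

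The amino acid branch was higher in part. Asns had 34.8, 40.2, 47.2 and 19.3 CPM in plasma-like cells and 0.852, 3.5, 2.34, 0 and 0.69 CPM in B-like cells (5.56, SE 0.55). Slc7a5 (2.47, SE 0.48) and Slc3a2 (2.10, SE 0.27) were higher together in all 4 libraries, and so was Atf4 by less (0.76, SE 0.20). Ddit3 (0.46, SE 0.51) and Atf3 (0.67, SE 0.69) did not pass. Of the related lists, 18 of 18 further folding genes and 17 of 17 translocation and export genes were higher. Among 14 further degradation genes 13 were higher, against 3 of 13 of the ATF4 programme. Leaving out flfl_CD4Cre lowered the members' count to 19.

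Macrophage-like and T-like cells divided the list by role. In macrophage-like cells 17 of 31 members were higher and 7 lower, against 51.4% of 11164 genes called (27.4% higher and 24% lower; edgeR's quasi-likelihood test). All 5 enzymes were lower in macrophage-like than in T-like cells, and 8 of 9 chaperones and foldases were higher. Phgdh had 1.51, 2.62, 1.01, 3.77 and 5.44 CPM in macrophage-like cells and 57.5, 109, 60.1, 151 and 158 CPM in T-like cells. The groups did not overlap, and the log2 difference was -4.99 (SE 0.36; adjusted p = 6.54e-13, edgeR's quasi-likelihood test). Mthfd2 had 17.2 to 25.5 CPM against 40.8 to 68.2 CPM (-1.13, SE 0.25). Asns (-2.09, SE 0.41), Psat1 (-1.75, SE 0.39), Slc7a5 (-1.02, SE 0.31) and Shmt2 (-0.85, SE 0.28) were lower too, with overlapping libraries. Slc7a5 and Shmt2 no longer passed without CD4Cre (adjusted p = 0.0514 and 0.119), nor did Shmt2 without flfl (0.0626), by edgeR's quasi-likelihood test. Gars was lower with no overlap, at 34.2 to 50.7 CPM against 57.9 to 90.5 CPM (-0.63, SE 0.18).

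Atf3 had 157, 210.4, 107, 210.4 and 62.7 CPM in macrophage-like cells and 8.94, 1.51, 6.44, 23.4 and 10.9 CPM in T-like cells. Every macrophage-like value was above every T-like value (3.88, SE 0.55). Slc7a11 did the same, with 40.7 to 87.5 CPM against 1.51 to 11.6 CPM (3.17, SE 0.47). Trib3 (2.31, SE 0.75), Xbp1 (1.90, SE 0.28) and Sesn2 (1.80, SE 0.38), the last a leucine-sensing inhibitor of growth signalling, were higher as well. Trib3 rested on few UMIs and did not pass without flfl (adjusted p = 0.0778, edgeR's quasi-likelihood test). Among the chaperones, Pdia6 (1.41, SE 0.17), Sdf2l1 (1.25, SE 0.23) and the calcium-binding lectin Calr (1.21, SE 0.19) led, and Calr stood at 507 to 1005 CPM against 302 to 443 CPM. Of 18 further folding genes 13 were higher and none lower. Of the 14 genes that tissue dissociation and heat raise, 6 were higher and 1 lower in macrophage-like cells, against 27.4% and 24% of all genes. Their part in the level of Atf3 and the other members was not tested.

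Between macrophage-like and monocyte-like cells only Calr passed, 1 of 31, against 14.5% of all genes (9.28% higher), with 783, 1005, 835, 507 and 520.5 CPM in macrophage-like and 575, 731, 660.1, 281 and 355 CPM in monocyte-like cells (0.59, SE 0.19; adjusted p = 0.0313, edgeR's quasi-likelihood test). It was higher in 5 of 5 libraries, but the call was lost without CD4Cre (adjusted p = 0.0802), without flfl (0.106) and without WT (0.103). It was also lost with a share of 2 times the next class (0.0624), with shared barcodes kept in every library (0.071) and with shared barcodes dropped (0.056), each by edgeR's quasi-likelihood test. Other settings called 0 to 6 members.

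Neutrophil-like cells had the highest median levels of Atf4, Ddit3 and Atf3 of all classes, while most chaperones were low. Against macrophage-like cells 11 of 31 members were higher and 11 lower, where 15.1% of all genes were higher and 26.9% lower, 42% in all (edgeR's quasi-likelihood test). The median change of all genes was -0.36 in this comparison. All 4 transcription factors were higher, and 7 of 9 chaperones and foldases were lower. Many neutrophil-like cells lay near the class limit: 22 of 40, 46 of 148, 24 of 63, 30 of 73 and 25 of 41 over the 5 libraries.

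Slc7a11 had 607, 822, 468, 1101 and 348 CPM in neutrophil-like cells and 70.5, 79.3, 40.7, 87.5 and 41.5 CPM in macrophage-like cells. No library overlapped, and the log2 difference was 3.46 (SE 0.40; adjusted p = 5e-08, edgeR's quasi-likelihood test). Ddit3 had 329, 521, 388, 108 and 52.4 CPM against 46.9, 58.8, 35.7, 37.2 and 28.3 CPM (2.74, SE 0.36). It was higher in 5 of 5 libraries, but the flfl and WT libraries were lower than the other 3, and WT overlapped the macrophage-like range. Atf3 had 598, 1144, 564, 431 and 145 CPM (2.05, SE 0.46), and Sesn2 139, 93.3, 154, 31.3 and 21.6 CPM (2.05, SE 0.34). Both were again lowest in the WT library. Xbp1 (1.41, SE 0.27), Ddit4 (1.47, SE 0.30), an inhibitor of mTORC1 that stress raises, and Atf4 (1.07, SE 0.19) were higher in 5 of 5. Asns (2.38, SE 0.61) and Trib3 (1.82, SE 0.67) rested on few UMIs, with Asns at 17.3, 3.89, 0, 19.3 and 9.25 CPM. Asns did not pass without flfl (adjusted p = 0.0825), nor with classes called at a marker share of 2 times the next class, where its log2 difference was 1.07 (adjusted p = 0.365). Trib3 did not pass in 6 alternatives: without CD4Cre (adjusted p = 0.131), without flfl_CD4Cre (0.250), with no filter on low counts (0.0523), with at least 3 markers a cell (0.0904), with that stricter share (0.223) and with shared barcodes dropped (0.0711), all by edgeR's quasi-likelihood test.

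Sdf2l1 had 0, 1.94, 5.7, 43.4 and 21.6 CPM in neutrophil-like cells and 78.6, 183, 83.5, 182 and 209 CPM in macrophage-like cells (-3.17, SE 0.33). Pdia4 had 0, 3.89, 5.7, 26.5 and 30.8 CPM against 75.1 to 223 CPM (-3.00, SE 0.39). For both, flfl and WT were the highest neutrophil-like libraries, though below every macrophage-like one; in these 2 libraries neutrophil-like cells held a median of 2 of the 7 macrophage markers, against 0 or 1 elsewhere. Hsp90b1 (-1.95, SE 0.19), Calr (-1.78, SE 0.20) and Pdia6 (-1.78, SE 0.19) were lower with no overlap, as was Manf (-1.44, SE 0.24). Shmt2 was lower as well (-1.90, SE 0.59). Dnajb9, a cochaperone of BiP, was the exception among the chaperones (1.35, SE 0.31), and Hspa5 did not pass (-0.35, SE 0.22). Of 17 translocation and export genes 12 were lower and none higher.

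Genes that tissue dissociation raises were also high in neutrophil-like cells. Of the 14, 9 were higher than in macrophage-like cells and 1 lower, and they summed to 5329, 8998, 4345, 19635 and 9355 CPM, against 1909 to 5681 CPM in macrophage-like cells. Their part in the rise of Atf3, Ddit3 and the other members was not tested. The median depth was 2142, 3518, 2555, 5122 and 6392 UMIs a cell in neutrophil-like cells and 11502 to 15935 in macrophage-like cells. In flfl and WT the neutrophil-like cells were thus the deepest, and the part of depth in the differences between libraries was not tested.

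**Figure D4:**
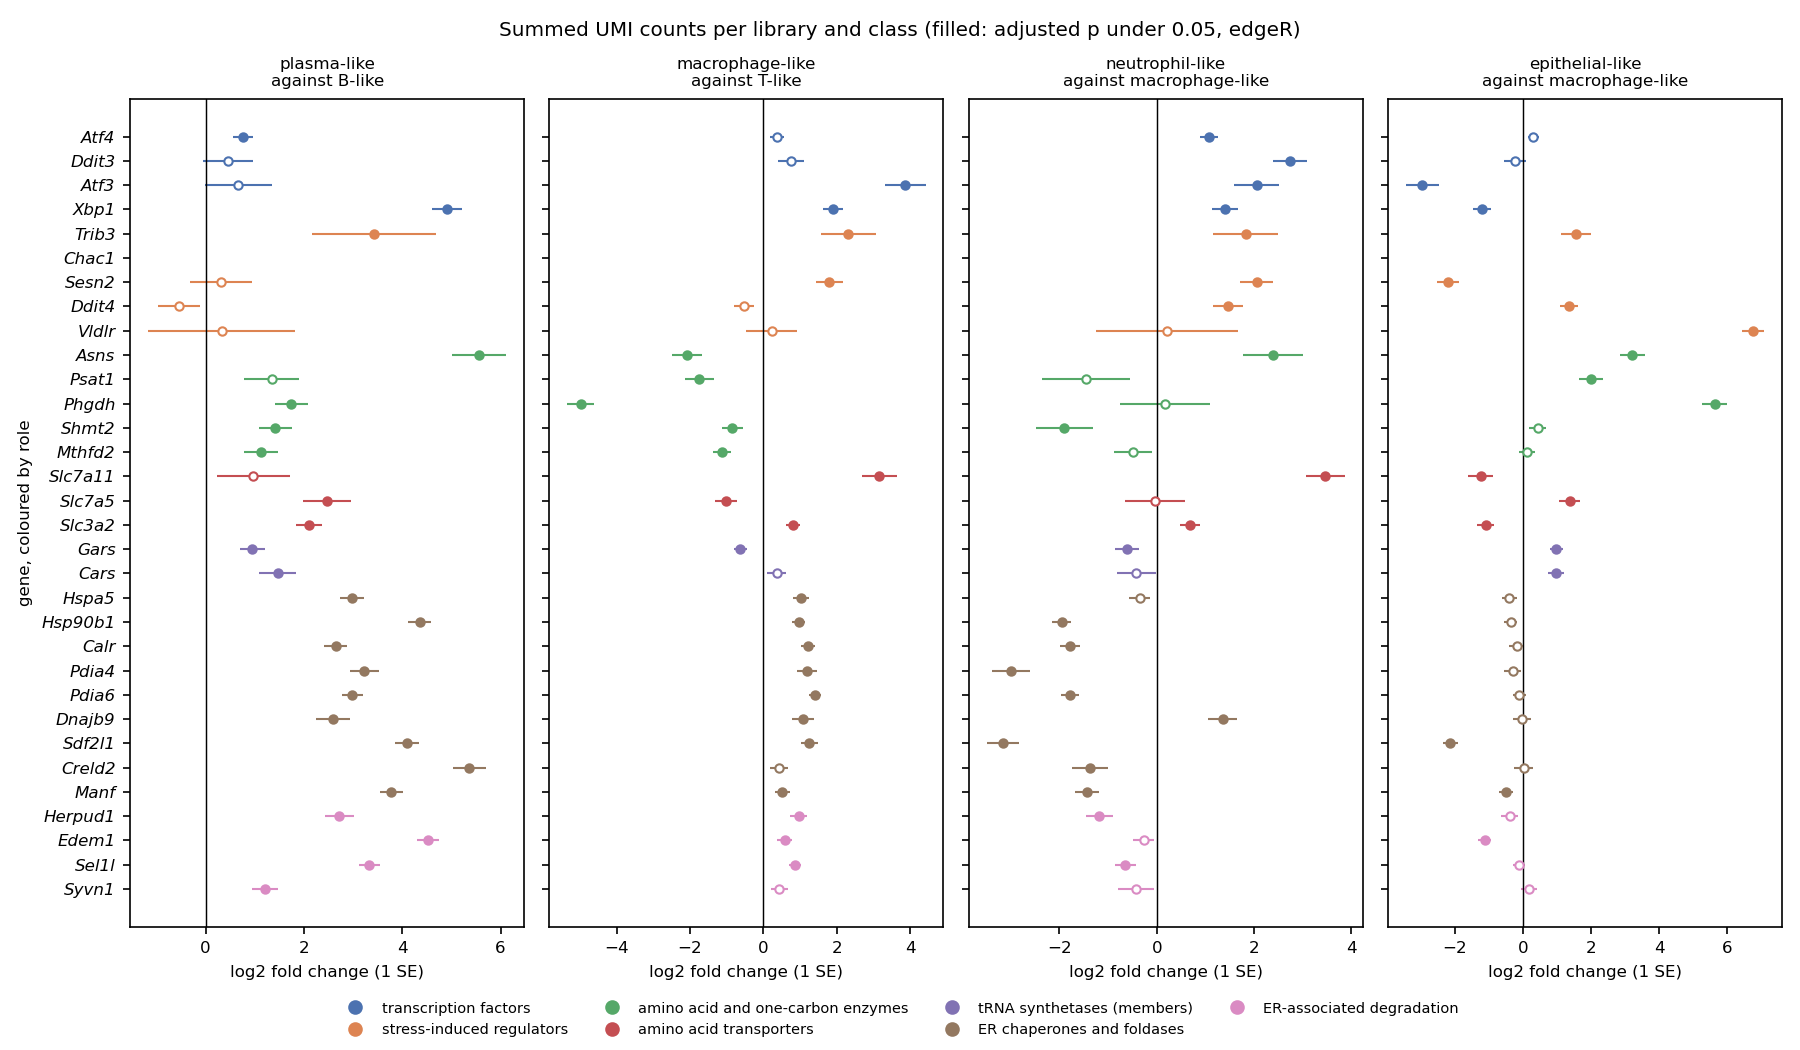
Log2 fold change (points) with 1 standard error (bars) of the listed genes in 4 comparisons of cell classes, coloured by role and filled where the adjusted p of edgeR's quasi-likelihood test was under 0.05. Chaperones lie to the right in plasma-like against B-like and macrophage-like against T-like cells and mostly to the left in neutrophil-like against macrophage-like cells, and Vldlr, Phgdh and Asns lie far to the right in epithelial-like cells. Chac1 was too low to be tested.

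Epithelial-like cells, which the sort should have removed, carried the serine and asparagine enzymes and Vldlr, of which only Vldlr was particular to them. Among 13 classes they ranked 4 by median level for Phgdh, 2 for Asns and 3 for Psat1. Macrophage-like cells, the class compared, ranked 11 for Phgdh and 10 for Asns. Against macrophage-like cells 9 of 31 members were higher and 8 lower, where 61.8% of all genes passed edgeR's quasi-likelihood test (35% higher and 26.8% lower). Vldlr had 86.3, 100.01, 122, 44.5 and 47.3 CPM in epithelial-like cells and 1.76, 0.902, 0.8, 0.0992 and 0.25 CPM in macrophage-like cells. It was near 0 in every other class, with medians of at most 0.875 CPM, and its log2 difference was 6.75 (SE 0.33; adjusted p = 9.72e-22, edgeR's quasi-likelihood test). Phgdh had 120.3, 151, 87.2, 223 and 88.5 CPM (5.63, SE 0.36) and Asns 17.6, 30.5, 16, 9.53 and 20.6 CPM (3.22, SE 0.36), both above every macrophage-like library. Psat1 (1.998, SE 0.34), Trib3 (1.56, SE 0.44) and Slc7a5 (1.37, SE 0.30) were higher too, and both tRNA synthetases were higher (Gars 0.98, SE 0.19; Cars 0.97, SE 0.24). Atf3 was lower (-2.96, SE 0.48), with 10.1 to 54 CPM against 62.7 to 210.4 CPM, and so were Sesn2 (-2.20, SE 0.32), Sdf2l1 (-2.13, SE 0.22), Slc7a11 (-1.24, SE 0.36), Xbp1 (-1.20, SE 0.25) and Edem1 (-1.12, SE 0.20). Trib3 did not pass without flfl_CD4Cre (adjusted p = 0.0521) and Slc7a11 did not with shared barcodes dropped (adjusted p = 0.057), both by edgeR's quasi-likelihood test. Of 17 further tRNA synthetases 14 were higher and none lower. Epithelial-like cells held a median of 1 to 4 of the 7 macrophage markers, highest in WT, and the part of this was not tested. Near the class limit were 43 of 96, 204 of 600, 212 of 447, 21 of 36 and 62 of 78 of them over the 5 libraries.

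Migratory dendritic-like cells had low chaperones but high Mthfd2. Against macrophage-like cells 6 of 31 members were higher and 16 lower, against 52.6% of all genes (25.1% higher and 27.5% lower; edgeR's quasi-likelihood test). Mthfd2 had 170.3, 202, 207, 191 and 283 CPM in migratory dendritic-like cells and 23.3, 25.5, 17.2, 19.2 and 24.4 CPM in macrophage-like cells. All 5 libraries were several times higher (3.39, SE 0.25; adjusted p = 2.07e-15, edgeR's quasi-likelihood test). Shmt2, which precedes it in the mitochondrial folate pathway, was lower (-1.31, SE 0.33), as was Psat1 (-1.59, SE 0.51). Herpud1 had 145 to 263 CPM against 47.7 to 99.3 CPM (1.58, SE 0.26), whereas 8 of 9 chaperones and foldases were lower. These included Pdia4, with 7.45 to 22.1 CPM against 75.1 to 223 CPM (-2.77, SE 0.31), Pdia6 (-2.43, SE 0.21), Hsp90b1 (-2.38, SE 0.22), Sdf2l1 (-2.17, SE 0.24) and Hspa5 (-2.03, SE 0.24). Sesn2 (1.35, SE 0.28), Slc7a5 (1.30, SE 0.34), Slc7a11 (1.23, SE 0.36) and Sel1l (0.67, SE 0.18), the adaptor of the ubiquitin ligase, were higher, and Trib3 (-3.23, SE 0.81) was lower on few UMIs. Slc7a5 did not pass without flWT_CD4Cre (adjusted p = 0.0863), nor did Sel1l with a marker share of 2 times the next class (log2 0.35, adjusted p = 0.0923), both by edgeR's quasi-likelihood test. Of 17 further tRNA synthetases 12 were lower and 1 higher. Of the migratory dendritic-like cells 77 of 298, 121 of 367, 94 of 255, 14 of 47 and 9 of 13 were near the class limit over the 5 libraries.

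Some members were highest in classes too small to test. In plasmacytoid dendritic-like cells Slc7a5 had 138 CPM in CD4Cre (95% exact Poisson interval 85.5 to 211) and 78.0 CPM in flfl (28.6 to 170), from 15 and 11 cells. Herpud1 had 197 CPM and 546 CPM there, so its order between those libraries was the reverse. Chac1 was too low to be tested in any class, with a median of 6.91 CPM over libraries in plasma-like and 5.83 CPM in neutrophil-like cells.

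Genotypes had 1 library each, so they were not tested. A gene was counted where it reached 20 CPM in flfl_CD4Cre or CD4Cre, differed at least 2-fold between them and had 95% exact Poisson intervals that did not meet. These intervals cover counting error only. By this rule 12 of 211 pairs of a member and a class were past the limit, 3 higher and 9 lower in flfl_CD4Cre. The shares of all genes below are for either direction, so this split by direction is a description only. The counts were 1 of 24 members in T-like cells (4.76% of all genes at that level), 0 of 21 in B-like (2.09%), 4 of 27 in plasma-like (7.53%), 1 of 23 in macrophage-like (2.51%) and 3 of 24 in monocyte-like cells (3.97%). They were 0 of 21 in neutrophil-like (1.73%), 2 of 23 in cDC2-like, a class of dendritic cells (2.92%), 0 of 21 in migratory dendritic-like (1.05%) and 1 of 27 in epithelial-like cells (1.02%).

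Cd274, the gene of PD-L1, stood at 60.01 CPM in T-like cells of CD4Cre (95% interval 44.1 to 79.8) and at 38.6 CPM in flfl_CD4Cre (22.9 to 61.0), which overlap. It stood at 36.2 CPM in flWT_CD4Cre (23.2 to 53.8), 9.08 CPM in flfl (6.57 to 12.2) and 9.05 CPM in WT (5.80 to 13.5). All 3 libraries labelled with Cre, which also share most of the repeated barcodes, were thus above both libraries labelled without it. Where its reads lie relative to the deleted part is not stated, so this does not check the label.

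In T-like cells, where Cre acts, Slc7a5 was the only member past the limit, and other settings gave 0 to 3 members. It had 4.29 CPM in flfl_CD4Cre (95% interval 0.520 to 15.5; 2 UMIs) and 33.2 CPM in CD4Cre (21.7 to 48.6; 26 UMIs). The other libraries had 9.05 CPM in flWT_CD4Cre, 10.4 CPM in flfl and 12.4 CPM in WT, so CD4Cre stood apart from all 4. Slc7a5 was also lower in flfl_CD4Cre in cDC2-like cells, at 29.8 against 86.0 CPM, and there too flWT_CD4Cre (26 CPM), flfl (32.9 CPM) and WT (32.7 CPM) were near flfl_CD4Cre. In epithelial-like cells Slc7a5 was at 9.18 against 20.2 CPM, but with all shared barcodes dropped its log2 ratio was 0.13, the opposite direction, and 5 other settings left no member past the limit in that class. Slc3a2 in cDC2-like cells was at 71.8 CPM in flfl_CD4Cre, below all 4 others (162 to 200.4 CPM).

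In monocyte-like cells Atf3 had 129 CPM in flfl_CD4Cre and 332 CPM in CD4Cre. The other libraries spanned both, with 587 CPM in flfl and 75.5 CPM in WT. Ddit4 (55.2 against 123 CPM) and Ddit3 (33.6 against 69.0 CPM) were lower as well and likewise lay inside the range of the other libraries. Dissociation genes summed to 15228 CPM in monocyte-like cells of flfl and to 2245 to 3935 CPM in the other 4 libraries; their part was not tested. Ddit4 was also lower in macrophage-like cells, with 31.6 CPM in flfl_CD4Cre (29.1 to 34.2) against 80.2 CPM in CD4Cre (74.1 to 86.7). Here again CD4Cre was the highest of the 5 libraries, followed by flWT_CD4Cre at 49.1 CPM, flfl at 29.8 CPM and WT at 23.6 CPM.

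In plasma-like cells Creld2 (933 against 396 CPM), Slc3a2 (231 against 93.6 CPM) and Sel1l (394 against 189.8 CPM) were higher and Atf3 (12.7 against 66.8 CPM) lower in flfl_CD4Cre. Those values come from 23 and 28 cells. Of these 4, only Sel1l lay outside the range of the other libraries.

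**Figure D5:**
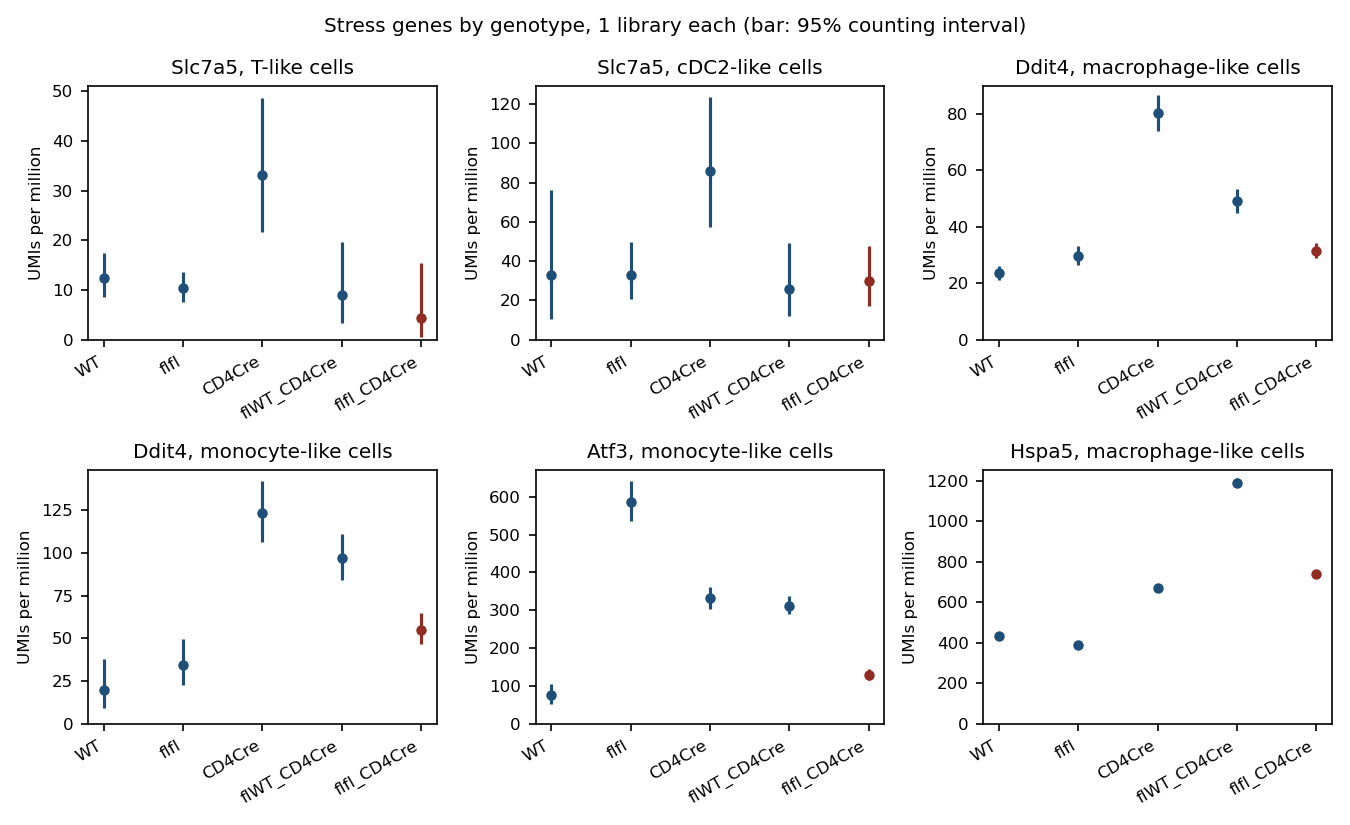
Level of 5 member and class pairs past the limit between flfl_CD4Cre (red) and CD4Cre, and of Hspa5 in macrophage-like cells for comparison, in CPM in each genotype, 1 library each, with 95% counting intervals (bars). Slc7a5 and macrophage-like Ddit4 are highest in CD4Cre among all 5 libraries, while Atf3 is highest in flfl.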

How the data were processed

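RNA was measured in 12 bulk libraries and 5 single-cell libraries. The bulk files held raw counts per gene, deposited by the authors. The submitters' processing notes name STAR, HTSeq and mm10, whose versions and strand setting are not given in the sources used here. Single-cell files held deposited UMI counts, and 3 of the 5 matrices carried a Cell Ranger 3.1.0 header. Rows naming no gene were left out of library sizes (aligned reads not given to 1 gene, 7.64% to 34.5% of all). Bulk groups followed the titles and single-cell groups the genotype entry; the file names of the flWT_CD4Cre and WT single-cell libraries disagreed with their labels and were not used.

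Counts were tested with edgeR 4.0.16 (R 4.3.3; TMM scaling, filterByExpr, robust quasi-likelihood F-test, Benjamini-Hochberg adjustment over all genes tested, limit 0.05). All 12 bulk libraries entered 1 fit; no 2 of a group were identical (chi-square per degree of freedom 1.56 to 20.3). CPM were computed per total gene counts. SE is the absolute log2 change divided by the square root of F. For a large change on few reads it can be smaller than counting error alone. RPKM used the merged exon length of each gene in the GENCODE mouse annotation. A cell took the class with the highest share of its markers detected, with at least 2 markers and a share at least 1.5 times the next; cells under these limits stayed unassigned, assigned cells could hold some markers of another class, and no doublet caller was run. Class sums needed 20 cells a library, or 10 for plasma-like, epithelial-like and migratory dendritic-like cells. The text names, per comparison, the listed genes that passed, or the 6 largest each way where more than 12 passed, or the 5 smallest p where none did. DESeq2 1.42.0, other scalings, no filter, a replicate block, each library left out, other class limits and other handling of shared barcodes were tried. The scripts were tested on simulated data. The members and lists were chosen with earlier results of these data known.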

Additional observations from a re-analysis of the deposited data

Results flagged for a closer look

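Of the reads of the Ctrl_Fc and PD1_Fc libraries at least 79.9% did not align to the genome, against at most 11.2% in Control and PDL1_Fc, a difference in data outside the gene counts. In the single-cell libraries, 2184 cell barcodes occurred in 2 or more libraries; among CD4Cre, flWT_CD4Cre and flfl_CD4Cre the pairs shared 1414 to 1856 barcodes, and other pairs 0 to 12.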

How the results depend on the processing

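The counts of members called were within 1.5 times of those reported in 135 alternatives and not in 13, and those of single classes between genotypes in 37 and not in 13. Single members kept their direction and side of the limit, or their size, in 1233 alternatives; 22 lost a call, 2 gained one, 3 moved in size and 1 reversed. Between PD1_Fc and Ctrl_Fc, DESeq2's Wald test and a fit of those libraries only each called 1 member, Gars, in place of 0. Between macrophage-like and monocyte-like cells, where 1 member passed, DESeq2 size factors and no filter on low counts each gave 2, DESeq2's Wald test 4, a share of 2 times the next class 6 and dropping shared barcodes 0. The genotype count of 12 became 7 with a share of 2 times the next class and 4 with shared barcodes dropped, where Slc7a5 in epithelial-like cells turned to a log2 ratio of 0.13; the cause was not tested. Leaving out 1 library each gave 25 to 28 members for Ctrl_Fc against Control, 26 to 29 for PD1_Fc against PDL1_Fc, 0 to 3 for macrophage-like against monocyte-like cells and 19 to 25 for plasma-like against B-like cells. The plasma-like comparison with a share of 2 times the next class, and plasmacytoid against cDC1-like cells, had too few cells to be run. Replicate numbers did not pair the bulk libraries (correlations of same-numbered libraries -0.13 to 0.09), and a fit with the replicate number as a block called 0, 0, 26, 28 and 0 members in the 5 bulk comparisons. Total-count scaling, shared-barcode settings, the limit of 10 cells and the epithelial-like and migratory dendritic-like comparisons were chosen after seeing the data. Depth limits Chac1 and Trib3, Creld2 and Phgdh in Ctrl_Fc and PD1_Fc, and every member in classes of few cells.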
